A study of Mus musculus with 24 samples.

Results

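The 8 genes Reg1, Reg3a, Reg3b, Reg3g, Reg4, Retnla, Retnlb and Retnlg encode small secreted proteins of the Reg and resistin-like families. They were picked by symbol, with earlier results of these data known, and are 8 of the 24346 symbols in each table. Expression was read in 24 mouse colorectal RNA-seq libraries as FPKM, fragments scaled by transcript length and by mapped fragments, a scale on which levels of different genes can be set side by side. All animals had received AOM/DSS, the carcinogen azoxymethane with the colitis-inducing polymer dextran sulfate sodium, and each library came from tissue labelled tumor or normal and genotype c-MAF_KO or wild type. The KO-labelled groups were 1_hetero_ko, 8_hetero_ko and 8_homo_ko, whose names are read here as heterozygous and homozygous, each with 3 tumor and 2 normal libraries. The wild-type (WT) groups were wild_young, with 4 tumor and 2 normal libraries, and wild_old, with 1 tumor and 2 normal libraries. Every sample name also carries the word drug, so no group without treatment is present, and the normal tissue is tissue from treated animals. What the leading 1 and 8 stand for is not said in the labels, which give age only as young or old, name no driver, allele or cell type for the deletion, and do not say whether libraries came from separate animals. The p-values below therefore measure only the spread between these libraries, which may be technical.

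Reg proteins are C-type lectins. Reg3b and Reg3g are made by intestinal epithelial cells and bind and kill bacteria, Reg3a belongs to the same group, Reg1 is a major product of pancreatic acinar cells, and Reg4 is a colonic secretory cell product that is often raised in colorectal tumors. Resistin-like proteins are cysteine-rich: Retnlb is a goblet cell product with bactericidal activity that rises in type 2 immune responses, Retnla is made by alternatively activated macrophages and stromal or fat tissue, and Retnlg is a product of neutrophils and bone marrow. Interleukin-22 acting through Stat3 is the known inducer of Reg3b and Reg3g, and interleukin-4 and interleukin-13 acting through Stat6 are the known inducers of Retnla and Retnlb.

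All 24 libraries held epithelial transcripts, with Epcam between 418 and 1103 FPKM and Krt8 between 1626 and 5819 FPKM, while the colon epithelium genes Cdx1, Cdx2, Car1 and Slc26a3 fell in tumors of both labels, Cdx2 to as low as 2.95 FPKM and Slc26a3 to 2.93 FPKM. Between 12074 and 13290 genes reached 1 FPKM per library, and relative depth, estimated from the lowest values because fragment totals are unknown, spanned 0.693 to 1.87 times that of the median library, with the 4 WT normal libraries at 0.693 to 0.853. Maf, the targeted gene, was 1.52 to 7.40 FPKM in the 15 KO-labelled libraries and 1.38 to 7.26 FPKM in the 9 WT-labelled libraries, so its level does not separate the labels; in 1_hetero_ko tumors it was 1.12 higher on the log2 scale than in wild_young tumors (limma adjusted p = 0.017). The tables do not show which part of the gene was deleted, and for this reason KO is used below only as the name of a label. Some libraries stood apart. The pancreatic enzyme gene Cela2a reached 429 FPKM in 8_hetero_ko normal 1 and 573 FPKM in 8_homo_ko normal 2 against at most 6.71 elsewhere. The squamous keratin gene Krt5 reached 1163 FPKM in 8_hetero_ko tumor 2 and 250 FPKM in wild_young tumor 2 against at most 0.568 elsewhere. Xist, a transcript of the inactive X chromosome, was at least 7.38 FPKM in 6 libraries (1_hetero_ko tumor 3 and both its normals, 8_hetero_ko tumor 3 and both its normals) and at most 0.0719 in the other 18. Xist and Y-linked genes were read as a check of sex, which the sample names do not give. No WT-labelled library had high Xist, so sex is uneven across labels and tissues. Between KO and WT normal tissue Xist was 2.82 higher and the Y-linked Eif2s3y 3.40 lower on the log2 scale, neither past the limma threshold. The part of sex in the differences below was not tested. The 8 genes of the smooth muscle list summed to 2925 FPKM in the single wild_old tumor against 178 to 378 in the wild_young tumors.

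The genes lie in 3 places of the mouse genome (mm10, the same assembly as GRCm38, with GENCODE vM21 gene bounds). Reg3b at chr6:78370657-78373466, Reg3a at chr6:78380709-78383827 and Reg1 at chr6:78422711-78428667 lie on the plus strand, and Reg3g at chr6:78466269-78468872 lies close by on the minus strand. Reg4 stands alone on the plus strand of chromosome 3 at chr3:98222156-98236748. Retnlb at chr16:48816856-48818892, Retnla at chr16:48842551-48844461 and Retnlg at chr16:48872621-48874496 follow each other on the plus strand. Aligned transcripts of Retnla and Retnlg were 84.5% identical and those of Reg3b and Reg3g 71.6%, and no pair of family members shared a stretch of 50 bases. How reads that fit more than 1 gene were assigned is not given in the sources used here.

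Promoters of 7 of the 8 genes, 250 bases before to 50 after the RefSeq start on GRCm38.p6, were searched on both strands for 4 motifs: TTCNNNGAA, the pair of triplets that STAT factors bind, the same pair with 1 more base between the triplets, TGCTGA, part of the element that MAF factors bind, and TATAAA. The 250 bases before the start are shown for 2 pairs of related genes: Reg3b and Reg3g, of which Reg3g passed the threshold in KO-labelled tumors, and Retnla and Retnlg, which moved in opposite directions there. Each reads 5′ to 3′ on the strand of its gene, and capitals mark matches to any of the 4 motifs.
Reg3b, chr6:78370635-78370884, plus strand: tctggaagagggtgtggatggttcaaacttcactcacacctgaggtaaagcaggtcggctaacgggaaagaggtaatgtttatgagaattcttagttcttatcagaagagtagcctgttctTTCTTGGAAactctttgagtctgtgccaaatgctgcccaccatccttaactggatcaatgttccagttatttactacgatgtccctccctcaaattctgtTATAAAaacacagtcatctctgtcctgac
Reg3g, chr6:78468875-78469124, minus strand: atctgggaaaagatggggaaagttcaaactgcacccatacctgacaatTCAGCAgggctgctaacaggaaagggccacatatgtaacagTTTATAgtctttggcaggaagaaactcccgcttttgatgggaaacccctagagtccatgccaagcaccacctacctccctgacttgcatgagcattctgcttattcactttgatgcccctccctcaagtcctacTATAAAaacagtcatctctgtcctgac
Retnla, chr16:48842359-48842608, plus strand: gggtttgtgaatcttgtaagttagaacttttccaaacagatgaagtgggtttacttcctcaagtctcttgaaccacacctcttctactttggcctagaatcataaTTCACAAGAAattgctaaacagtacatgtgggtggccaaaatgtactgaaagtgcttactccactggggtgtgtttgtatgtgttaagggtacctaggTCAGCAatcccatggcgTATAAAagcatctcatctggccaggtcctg
Retnlg, chr16:48872358-48872607, plus strand: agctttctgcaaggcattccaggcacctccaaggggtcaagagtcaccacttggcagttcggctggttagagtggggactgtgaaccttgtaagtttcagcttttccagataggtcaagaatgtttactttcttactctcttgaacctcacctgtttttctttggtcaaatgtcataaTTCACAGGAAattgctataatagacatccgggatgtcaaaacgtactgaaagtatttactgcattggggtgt

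The first STAT motif occurred in 1 of the 7 promoters, as TTCTTGGAA in Reg3b from base -129 to -121 counted from the start, and in 8.3% of all 32851 promoters of the table. The second occurred in 3 of 7 (Reg1, Retnla and Retnlg) and in 6.95% of all promoters; in Retnla it read TTCACAAGAA and in Retnlg TTCACAGGAA. The MAF motif occurred in 2 of 7 (Reg3g and Retnla, on the opposite strand as TCAGCA) and in 19.5% of all promoters. TATAAA occurred in 4 of 7 (Reg1, Reg3b, Reg3g and Retnla) and in 13.6% of all promoters. Over 296 aligned bases, the Reg3b and Reg3g promoters were 69.9% identical, and over 226 aligned bases those of Retnla and Retnlg were 77.4% identical. A match says only that these letters are present.

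Levels spanned more than 4 orders of magnitude between members. By the median over all 24 libraries, Reg4 was the most abundant at 594 FPKM, followed by Reg3g at 48.6, Retnlb at 33.4, Reg3b at 27.3, Retnlg at 3.19, Retnla at 1.49, Reg1 at 0.0726 and Reg3a at 0.0341. The ranges of all neighbours in this order overlapped. Reg4 was at least 45.2 FPKM in every library, while Retnlb ran from 3.56 to 3741 FPKM and Reg3b from 0.822 to 1005 FPKM. Reg3a exceeded 1 FPKM in 1 library and Reg1 in 3.

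**Figure D1:**
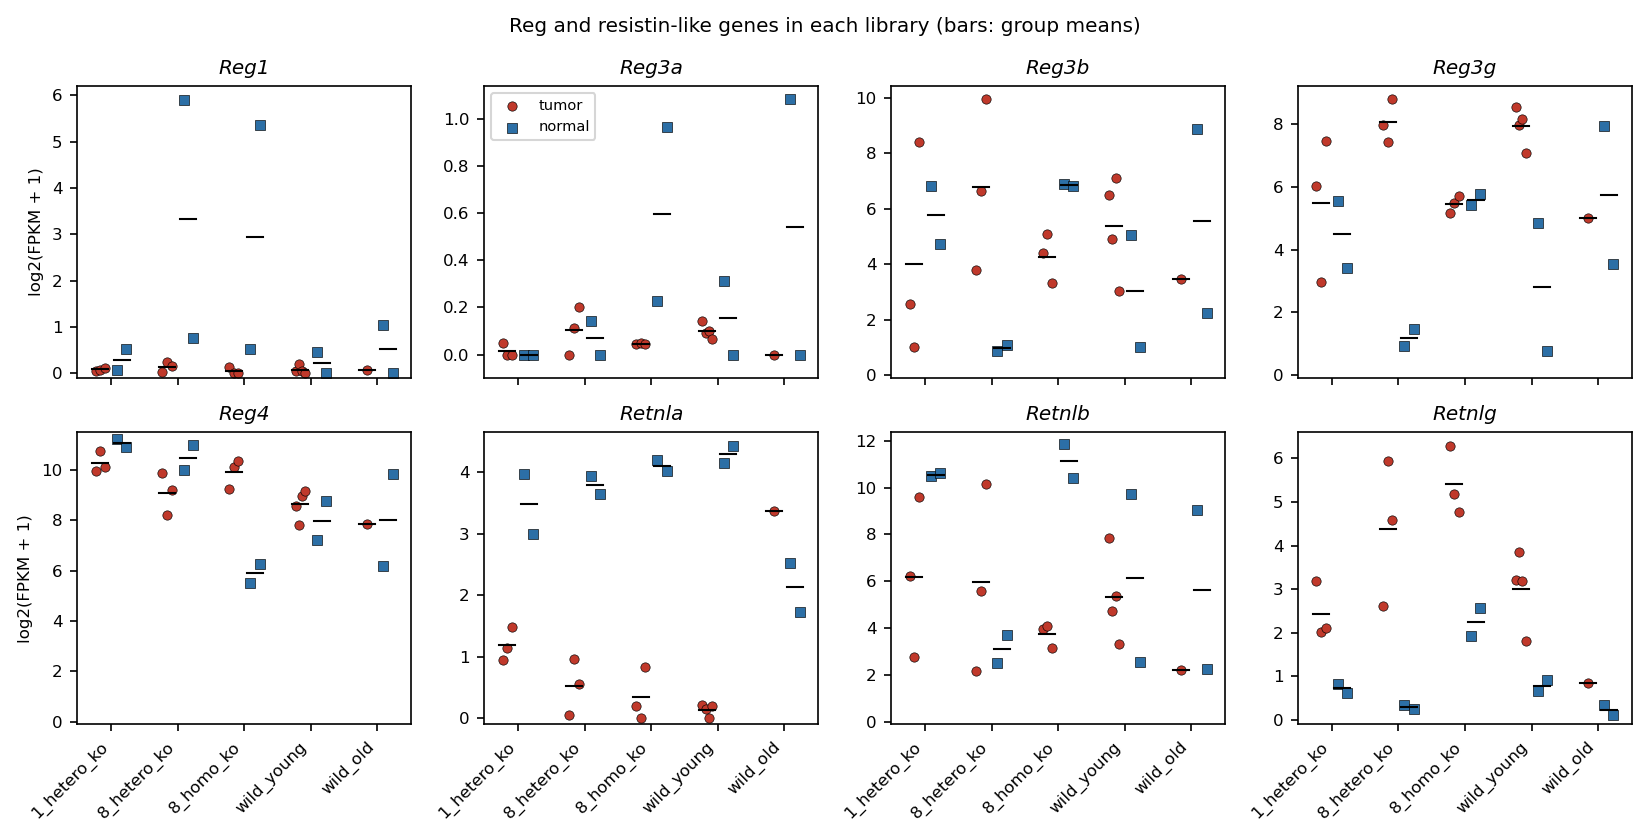
Expression of the 8 genes as log2(FPKM + 1) in each library, by sample group, with circles for tumor, squares for normal tissue and a bar at each group mean; the vertical scale differs between panels. Retnla is high in normal tissue (2.30 to 20.5 FPKM) and low in all tumors except the wild_old one (9.36 FPKM), Retnlg shows the opposite pattern, and Reg1 is high in 2 normal libraries.

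The first question was how the genes differed between tumor and normal tissue. Retnla was lower in tumors of both genotype labels, by 5.36-fold in WT and 8.62-fold in KO. Retnlg and Reg3g were higher in KO-labelled tumors, by 7.92-fold and 5.98-fold, and their WT differences of 4.21-fold and 8.47-fold missed the threshold. Reg3b, Reg4 and Retnlb differed by less than their spread in both labels. Differences were tested with limma on log2(FPKM + 1) over the 13799 genes that reached 1 FPKM in 4 or more libraries, with Benjamini-Hochberg adjustment and a threshold of 0.05, and folds are on that scale, which understates changes of low genes. Of the 6 members that passed this filter, 1 passed the threshold in WT, where 30.4% of all genes did, and 3 in KO, where 47.2% of all genes did. Reg1 and Reg3a did not pass the filter. In bulk tissue, fewer cells of a type and less RNA per cell cannot be told apart.

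Retnla, the macrophage and stromal member, was 0.161, 0.103, 0, 0.144 and 9.36 FPKM in the WT tumors (wild_young 1 to 4, then wild_old) and 16.7, 20.5, 4.77 and 2.30 FPKM in the WT normal libraries (wild_young 1 and 2, then wild_old 1 and 2). In KO it ran from 0 to 1.79 FPKM with a median of 0.777 in 9 tumors, and from 6.97 to 17.3 FPKM with a median of 14.5 in 6 normal libraries. All KO tumors were below all KO normal libraries, a separation in this direction that 7.05% of all genes showed, while in WT the wild_old tumor lay inside the normal range. Retnla fell by 2.42 on the log2 scale in WT (SE 0.57, limma adjusted p = 0.0033) and fell by 3.11 in KO (SE 0.45, limma adjusted p = 1.48e-05). Without the wild_old tumor the WT difference was -3.07. Genes of fat and muscle fell in the same comparisons: all 8 smooth muscle genes fell in both labels, and of 7 fat cell genes tested 4 fell in WT and 7 in KO, Retn among them. The Pearson correlation of Retnla with the fat cell gene Adipoq was 0.798 over all libraries. It was 0.184 over tumors and 0.430 over normal libraries. The smooth muscle sums were 939 to 7200 FPKM in WT normal tissue and 1413 to 4601 FPKM in KO normal tissue, against 178 to 2925 in WT tumors and 246 to 1316 in KO tumors. The fat cell sums were 52.5 to 271 FPKM and 124 to 427 FPKM in WT and KO normal tissue, against 13.7 to 39.3 and 13.95 to 177 in tumors. The part of tissue makeup in the Retnla difference was not tested. Of 10 genes of alternatively activated macrophages, 5 rose in WT tumors and 4 in KO tumors, and 0 fell. Of all 13799 genes tested, 2143 rose in WT and 3321 in KO, while 2049 and 3199 fell. Arg1, the arginase of these cells, rose by 3.71 in WT and 3.76 in KO. In WT, Ccl17 also rose by 2.08, Ccl22 by 1.26 and Mrc1 by 1.07. Among genes that did not pass in either label, Cd163 was at -0.42 and -0.61, Clec10a at -0.26 and -0.02 and Mgl2 at -0.04 and 0.11. Ccl24 and Chil3 did not pass either, but stood above 0 in WT, at 1.50 and 0.73.

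Resistin itself, Retn, a fat cell hormone in mice and no member of the 8, took the same direction as Retnla. It was 1.63 to 34.4 FPKM in the 10 normal libraries and 0 to 1.94 FPKM in 13 of 14 tumors, with 37.6 FPKM in 8_hetero_ko tumor 2. It fell by 2.08 on the log2 scale in WT and by 3.18 in KO (SE 0.76 and 0.60, limma adjusted p = 0.041 and 0.00022).

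Retnlg, the neutrophil member, was 8.20, 13.3, 8.05, 2.54 and 0.814 FPKM in the WT tumors and 0.587, 0.888, 0.269 and 0.0775 FPKM in the WT normal libraries. In KO it ran from 3.07 to 77.2 FPKM with a median of 23.1 in tumors, and from 0.191 to 4.96 FPKM with a median of 0.657 in normal tissue. The 4 wild_young tumors were above all WT normal libraries and the wild_old tumor was not, and in KO the ranges overlapped only through 8_homo_ko normal 2 (4.96 FPKM) and 1_hetero_ko tumors 2 and 3 (3.07 and 3.31 FPKM). The difference was 2.99 in KO (SE 0.62, 95% interval 1.70 to 4.28, limma adjusted p = 0.00059) and 2.07 in WT (SE 0.79, 95% interval 0.43 to 3.71, limma adjusted p = 0.051). Without the wild_old tumor the WT difference was 2.50 and passed (limma adjusted p = 0.021). With a pseudocount of 0.1 it was 3.34 (limma adjusted p = 0.015). Leaving out wild_young tumor 4 gave a difference of 2.26 that also passed (limma adjusted p = 0.046), and leaving out any of 7 KO-labelled libraries, which share the estimate of the spread, left it at 2.07 with limma adjusted p from 0.039 to 0.049. The KO difference was 2.03 without the 6 libraries with Xist (limma adjusted p = 0.12), which leaves the 8_homo_ko normals alone in that arm. Of 10 neutrophil genes tested, 8 rose in WT tumors and 9 in KO tumors, and S100a8, a neutrophil calcium-binding protein, rose by 4.70 in WT and 4.86 in KO. The 15-gene neutrophil list summed to at most 30.9 FPKM in any normal library and to 27.4 to 2176 FPKM in tumors, lowest in the wild_old tumor; the part of neutrophil number in the Retnlg difference was not tested.

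**Figure D2:**
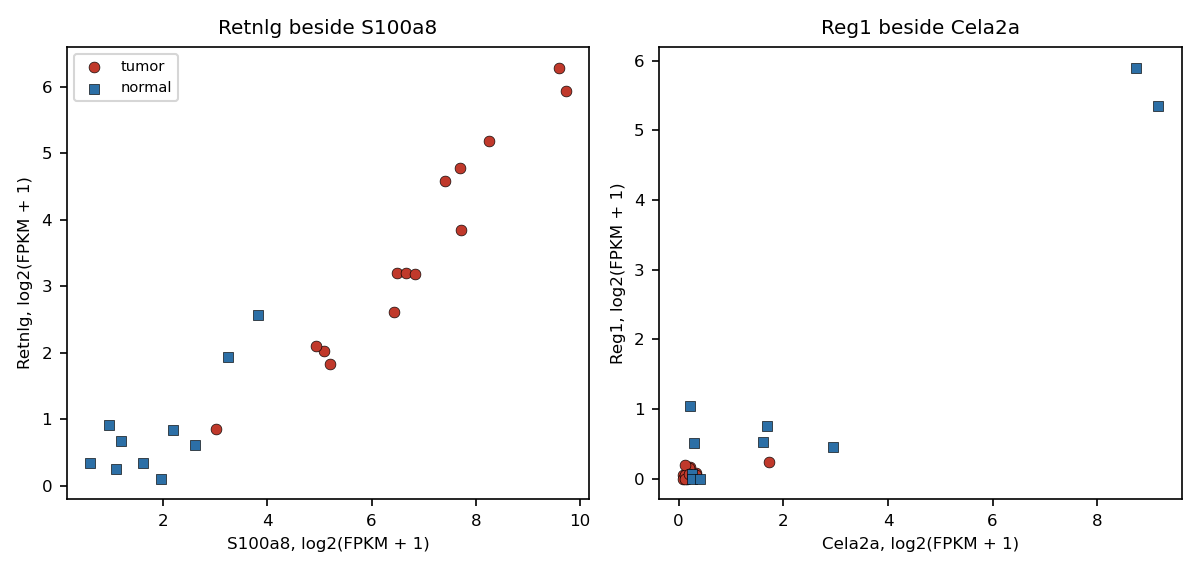
Left, Retnlg against the neutrophil gene S100a8; right, Reg1 against the pancreatic enzyme gene Cela2a, each as log2(FPKM + 1) with 1 point per library. S100a8 is at most 13.1 FPKM in the normal libraries and the wild_old tumor and at least 29.8 FPKM in the other tumors, whereas Retnlg overlaps, with 4.96 FPKM in 8_homo_ko normal 2 and 2.54 FPKM in wild_young tumor 4; the 2 libraries with Reg1 at 58.9 and 39.9 FPKM are the ones with Cela2a at 429 and 573 FPKM.

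Reg3g, the antibacterial lectin, was 376, 251, 284, 136 and 31.5 FPKM in the WT tumors and 27.8, 0.704, 246 and 10.8 FPKM in the WT normal libraries. In KO it ran from 6.75 to 451 FPKM with a median of 64.6 in tumors and from 0.878 to 53.8 FPKM with a median of 25.7 in normal tissue. The ranges overlapped in both labels, in WT through wild_old normal 1. The difference was 2.58 in KO (SE 1.00, 95% interval 0.50 to 4.66, limma adjusted p = 0.039) and 3.08 in WT (SE 1.28, 95% interval 0.44 to 5.73, limma adjusted p = 0.070). The KO groups differed in their values: in 8_hetero_ko all tumors (250, 173 and 451 FPKM) were above both normals (0.878 and 1.78 FPKM), as for 26.0% of all genes, whereas in 8_homo_ko the tumors (34.6, 43.5 and 51.5 FPKM) overlapped the normals (41.6 and 53.8 FPKM); this difference between groups was not tested. The KO call did not pass when 8_hetero_ko normal 1 or 2 was left out (2.01 and 2.12, limma adjusted p = 0.11 for both), nor without 8_hetero_ko tumor 1, 2 or 3, 1_hetero_ko tumor 3 or 1_hetero_ko normal 2 (2.27 to 2.51, limma adjusted p from 0.058 to 0.068). It also did not pass with no filter on low values (2.58, limma adjusted p = 0.057). Without the 6 libraries with Xist it was 0.23 (limma adjusted p = 0.92), and without the 2 normals with pancreatic transcripts or the 2 tumors with squamous keratins it was 2.37 and 2.44 (limma adjusted p = 0.091 and 0.065). The WT difference passed without wild_old normal 1 (4.31, limma adjusted p = 0.020) or without the wild_old tumor (3.67, limma adjusted p = 0.037).

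Reg3b, its close relative, was 88.7, 28.8, 136, 7.20 and 10.1 FPKM in the WT tumors and 32.0, 1.02, 468 and 3.75 FPKM in the WT normal libraries. In KO it ran from 1.04 to 1005 FPKM with a median of 20.1 in tumors and from 0.822 to 118 FPKM with a median of 68.7 in normal tissue. Ranges overlapped widely, and the differences were 0.70 in WT (95% interval -2.91 to 4.32) and 0.49 in KO (95% interval -2.35 to 3.33), neither past the threshold (limma adjusted p = 0.78 and 0.79). These intervals do not exclude changes of several-fold in either direction. Within libraries Reg3b and Reg3g kept different proportions: Reg3g exceeded Reg3b in 12 of 14 tumors, with a median ratio of Reg3b to Reg3g of 0.278, and in 3 of 10 normal libraries, with a median ratio of 1.68. The ratios overlapped, from 0.0510 to 2.23 in tumors and from 0.349 to 2.83 in normal tissue, and the 2 tumors with more Reg3b than Reg3g were 1_hetero_ko tumor 3 and 8_hetero_ko tumor 3.

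Retnlb, the goblet cell member, was 229, 25.6, 41.1, 8.95 and 3.60 FPKM in the WT tumors and 845, 4.98, 530 and 3.75 FPKM in the WT normal libraries. In KO it ran from 3.56 to 1125 FPKM with a median of 16.1 in tumors and from 4.75 to 3741 FPKM with a median of 1395 in normal tissue. The ranges overlapped in both labels, with normal libraries at both ends of the scale. The differences were -1.20 in WT (SE 2.06, limma adjusted p = 0.68) and -2.97 in KO (SE 1.61, limma adjusted p = 0.13). In KO the difference passed when 8_hetero_ko normal 1, with 4.75 FPKM, was left out (-4.12, limma adjusted p = 0.040), and without the libraries with Xist (-7.15, limma adjusted p = 0.0090). Of 12 goblet cell genes, 7 fell and 1 rose in WT tumors, and 8 fell and 1 rose in KO tumors; Atoh1 and Spdef, transcription factors of secretory cells, fell by 1.82 and 2.21 in WT, and Clca4b was the gene that rose. The 12 genes summed to 9222 to 22260 FPKM in normal libraries and 1888 to 8610 FPKM in tumors, and their part in the Retnlb values was not tested.

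Reg4, the colonic secretory member, was 377, 225, 502, 577 and 232 FPKM in the WT tumors and 146, 431, 71.5 and 917 FPKM in the WT normal libraries. In KO it ran from 293 to 1722 FPKM with a median of 997 in tumors and from 45.2 to 2362 FPKM with a median of 1454 in normal tissue. Tumors lay inside the normal range in both labels, and the differences were 0.48 in WT (SE 0.96, limma adjusted p = 0.73) and 0.61 in KO (SE 0.75, limma adjusted p = 0.52). Without the libraries with Xist the KO difference was 3.89 and passed (limma adjusted p = 0.0018); the 2 normal libraries left in that arm had Reg4 of 45.2 and 75.2 FPKM. Reg4 was at least 225 FPKM in every tumor, which no other member was.

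Reg1 and Reg3a were near 0 in colon tissue. Reg1 was 58.9 FPKM in 8_hetero_ko normal 1 and 39.9 FPKM in 8_homo_ko normal 2, at most 1.05 FPKM in the other normal libraries and at most 0.181 FPKM in the tumors. Those 2 libraries were also the ones with pancreatic enzyme transcripts (Ctrb1 at 409 and 453 FPKM and Prss2 at 153 and 253 FPKM), and with the pancreatic relative Reg2, at 13.3 and 86.3 FPKM against at most 0.527 elsewhere. In KO the mean of Reg1 was 2.09 lower in tumors on the log2 scale (exact permutation test, two-sided, p = 0.0024), and without the 2 libraries it was 0.37 lower (p = 0.017 by the same exact test). Without the libraries with Xist it was 2.86 lower (exact permutation p = 0.056). Only the 8_homo_ko normals are left in that arm, and no values could give this test a lower p. That p-value therefore cannot show whether the difference is weaker there. In WT the mean of Reg1 was 0.30 lower in tumors (exact permutation p = 0.33). Reg3a reached 1.12 FPKM in wild_old normal 1 and 0.952 FPKM in 8_homo_ko normal 2 and at most 0.241 FPKM in all others, with 9 of 24 libraries listed at 0, and did not differ beyond its spread in WT or KO (exact permutation p = 0.35 and 0.27). The p-values of these 4 exact tests are not adjusted. Of 6 exocrine pancreas genes tested, 0 changed in WT and 6 fell in KO tumors.

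**Figure D3:**
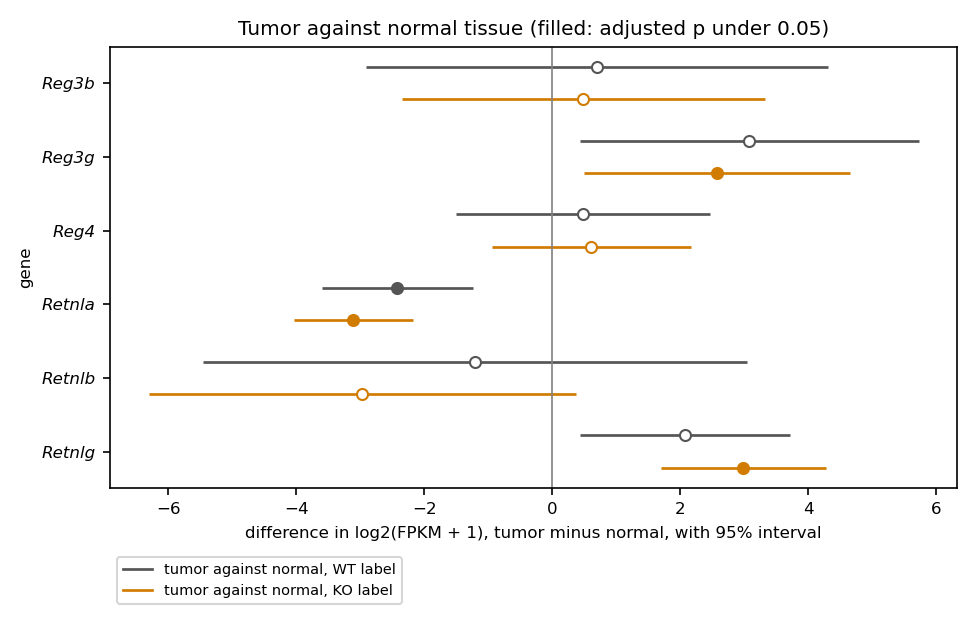
Difference between tumor and normal tissue in log2(FPKM + 1) for the 6 genes that passed the expression filter, with 95% intervals from limma, in grey for the WT label and orange for the KO label; filled points have adjusted p under 0.05. Retnla is on the left in both labels, at -2.42 and -3.11, Retnlg and Reg3g are on the right, and Reg3b, Reg4 and Retnlb have intervals that cross 0.

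The tumor and normal differences were not shown to depend on the genotype label: the interaction passed for 0 of 6 members and for 0.0% of all genes in limma, and for 0 members at an unadjusted p under 0.05, where 4.74% of all genes stood. The widest interaction interval was that of Retnlb, from -7.17 to 3.64.

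Genes that act before and after these proteins were read from lists chosen with earlier results of these data known. Of 22 tested genes of interleukin-22, interleukin-6 and interleukin-17 signalling, 9 rose and 1 fell in WT tumors, and 12 rose and 4 fell in KO tumors, with median differences of 0.50 and 0.59 beside 0.02 over all genes in each label. Il1b rose by 3.44 in WT, the Stat3 target Socs3 by 1.90, Il23a, a subunit of the cytokine that drives interleukin-22 production, by 2.14 and Osm, an interleukin-6 family cytokine, by 1.23 (limma adjusted p at most 0.0089). Il22 was at most 0.418 FPKM in any library and did not pass the filter. Of 10 tested genes of type 2 signalling, 4 rose and 1 fell in each label: Il4ra, the shared interleukin-4 and interleukin-13 receptor chain, by 1.22, the interleukin-33 receptor Il1rl1 by 2.94 and Il33 by 1.22 in WT, while Pou2f3, the tuft cell regulator, fell by 0.77. Il13 was at most 0.400 FPKM. Of 19 inducible epithelial defence genes, 11 rose and 1 fell in WT and 12 rose and 1 fell in KO, with medians of 1.89 and 1.91; Steap4 rose by 2.37, Slpi by 4.07, Cxcl5 by 4.32 and Cxcl1 by 3.06 in WT. Retnla, an interleukin-4 and interleukin-13 target, thus fell in the comparison in which Il4ra, Il33 and Arg1 rose. Of the 3 candidate receptors, Extl3 for Reg proteins and Cap1 and Tlr4 for resistin-like proteins, 0 passed in either label, and their differences lay between -0.12 and 0.32 in both.

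Other lists gave the tissue background of these differences. Of 7 Paneth-like antimicrobial genes tested, 6 rose in WT and 4 in KO tumors and 0 fell, with Lyz1 and Mmp7 up by 5.57 and 5.68 in WT. Of 10 enteroendocrine genes tested, 1 rose and 6 fell in WT and 1 rose and 8 fell in KO. Of 10 colon epithelium genes 4 fell in WT and 5 in KO, of 6 immune cell genes 2 rose in each label, of 5 eosinophil genes tested 2 rose in each label, and of 8 deep crypt secretory genes 1 rose and 2 fell in WT and 3 rose and 2 fell in KO. Of 4 small intestine and stomach genes tested, 1 rose and 1 fell in WT and 1 rose and 2 fell in KO.

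Normal libraries spread widely among themselves, within both genotype labels. Retnlb was 3741, 1370, 530, 845, 1583 and 1419 FPKM in 8_homo_ko normals 1 and 2, wild_old normal 1, wild_young normal 1 and 1_hetero_ko normals 2 and 1. It was 3.75, 12.1, 4.75 and 4.98 FPKM in wild_old normal 2, 8_hetero_ko normals 2 and 1 and wild_young normal 2. No normal library lay between 12.1 and 530 FPKM. Libraries of both genotype labels lay on both sides, and wild_young and wild_old each had 1 normal library on each side. Each KO group lay on 1 side, 1_hetero_ko and 8_homo_ko high and 8_hetero_ko low. For Retnlb, 4 of 6 KO normal libraries exceeded all 4 WT normal libraries.

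The same 4 libraries were the lowest for Reg3b, with 0.822, 1.02, 1.13 and 3.75 FPKM against 25.8 to 468 in the other 6. For Reg3g they held 4 of the 5 lowest values, with 0.704, 0.878, 1.78 and 10.8 FPKM, and 1_hetero_ko normal 2 had 9.70 FPKM. These 4 libraries also had the highest Hoxd13, a gene of the hind end of the body axis, at 13.0 to 62.1 FPKM against at most 4.99 in the other 6. This division was read from the Retnlb values, and 8.3% of all genes divided the same libraries without overlap. The defensive ribonuclease Ang4 ran with Retnlb, at 5.66 to 185 FPKM in these 4 and 324 to 2859 FPKM in the other 6.

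Reg4 followed another order. It was 45.2, 75.2, 71.5 and 146 FPKM in 8_homo_ko normals 1 and 2, wild_old normal 1 and wild_young normal 1, and 431 to 2362 FPKM in the other 6 normals. Those 4 libraries had the lowest Hoxb13, at 6.63, 20.7, 8.41 and 36.0 FPKM against 183 to 698 in the others, and the highest Hoxb6, a gene expressed further forward, at 16.1, 13.0, 29.2 and 10.1 FPKM against at most 0.977. This division was read from the Reg4 values, and 9.2% of all genes divided the same libraries without overlap. The labels do not say from which part of the colon each piece was taken, the Hox genes were looked at after these values were seen, and the part of position in these differences was not tested. No difference between normal tissue of KO and WT label was shown for the 6 tested members (0 of 6 past the limma threshold, 0.0% of all genes). At an unadjusted p under 0.05 stood 0 of 6, and 4.67% of all genes. The differences were 2.37 for Retnlb (95% interval -1.72 to 6.46), 1.15 for Reg4 (-0.77 to 3.06) and -0.52 for Reg3g (-3.065 to 2.02). These wide intervals do not exclude changes of several-fold. Retnla was at 0.59, Retnlg at 0.58 and Reg3b at 0.24. Reg1 and Reg3a were not tested here.

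**Figure D4:**
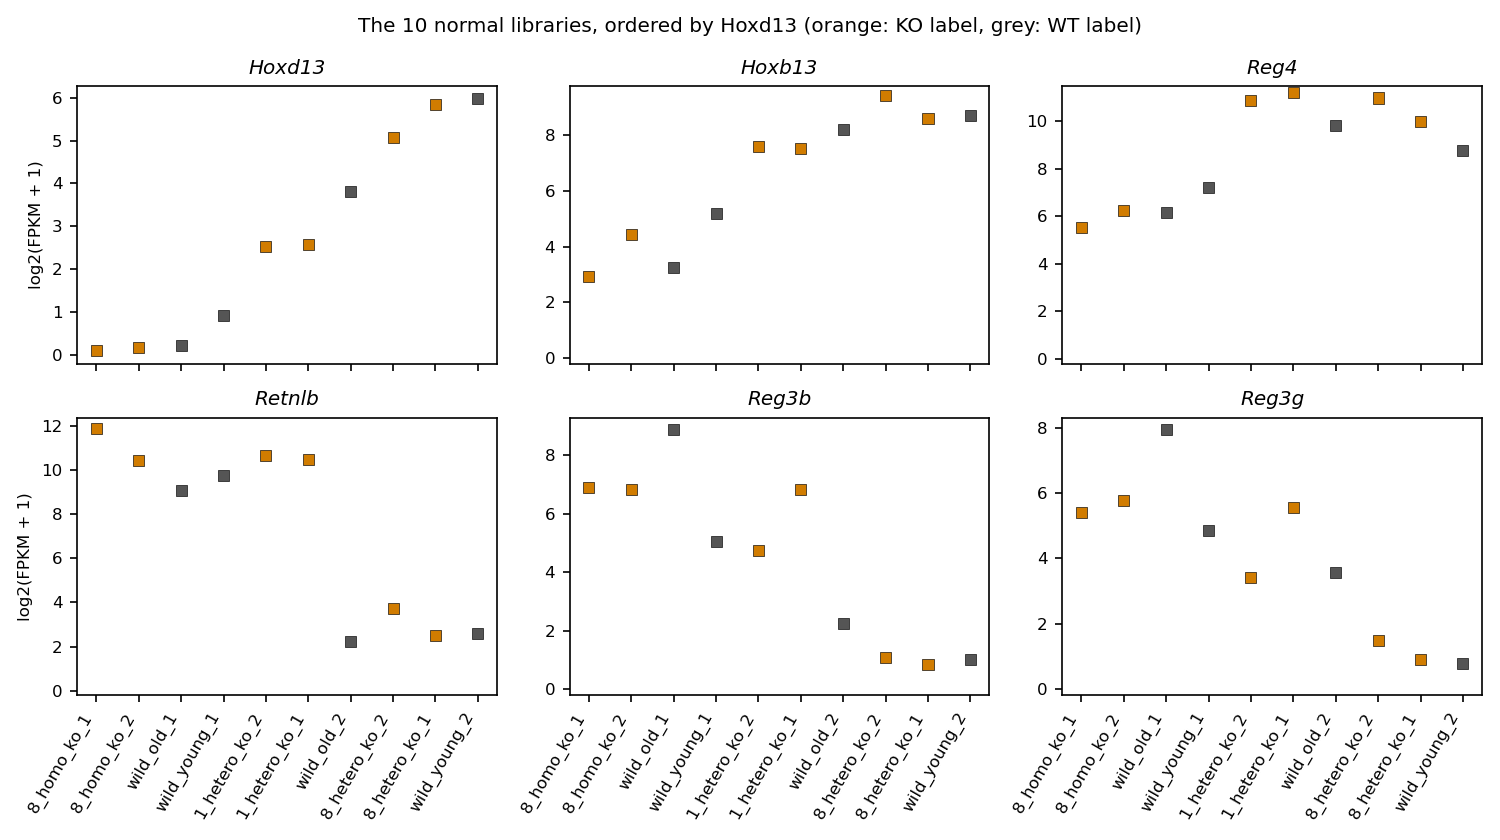
The 10 normal libraries in order of Hoxd13, with log2(FPKM + 1) of Hoxd13, Hoxb13, Reg4, Retnlb, Reg3b and Reg3g; orange squares carry the KO label and grey squares the WT label. Retnlb is at least 530 FPKM in the 6 libraries at the left and at most 12.1 FPKM in the 4 at the right, and Reg4 is lowest in the 4 libraries at the left.

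The next question was whether tumors of KO and WT label differed. None of the 6 tested members passed the limma threshold, where 0.00725% of all genes did, and 1, Retnlg, had an unadjusted p under 0.05, where 8.31% of all genes stood. Retnlg was higher by 1.50 in KO-labelled tumors (SE 0.66, 95% interval 0.13 to 2.86, limma adjusted p = 0.55), and 5 of 9 KO tumors exceeded all 5 WT tumors. Reg4 was higher by 1.28 (SE 0.80, 95% interval -0.38 to 2.93, limma adjusted p = 0.69), and 8 of 9 KO tumors, all but 8_hetero_ko tumor 2 at 293 FPKM, exceeded all 5 WT tumors. Reg3g was at -1.02 (95% interval -3.22 to 1.17), Retnlb at 0.60 (-2.93 to 4.14), Retnla at -0.10 (-1.08 to 0.88) and Reg3b at 0.03 (-2.98 to 3.03). Retnla was above 0 without the wild_old tumor (0.55), and Retnlb and Reg3b were below 0 without it (-0.02 and -0.36).

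Single KO groups were then set beside the 4 wild_young tumors, which all 3 comparisons share. In 1_hetero_ko tumors Retnla was 0.926, 1.195 and 1.79 FPKM against 0 to 0.161 FPKM, with no overlap, as for 27.4% of all genes, and was higher by 1.05 on the log2 scale (SE 0.26, limma adjusted p = 0.043). This was the 1 call among the 6 members, where 2.88% of all genes were called. It was lost in 10 of the 24 fits that leave out a single library: without 1_hetero_ko tumor 1, 2 or 3 it was 1.17, 1.07 and 0.90 (limma adjusted p = 0.12, 0.079 and 0.18), without wild_young tumor 1, 2, 3 or 4 it was 1.00 to 1.07 (0.075 to 0.095), and without 8_homo_ko tumor 1 or normal 1 or 2 it stayed at 1.05 (0.055 to 0.059). It also missed the threshold without the 2 tumors with squamous keratins (1.05, limma adjusted p = 0.070), without the 2 normals with pancreatic transcripts (1.05, 0.057), without the libraries with Xist (0.90, 0.14), with no filter on low values (1.05, 0.058) and with quantile normalization (0.90, 0.055). With a pseudocount of 0.1 it was 2.84 and passed (limma adjusted p = 0.035). Smooth muscle sums were 716 to 1089 FPKM in these tumors and 178 to 378 FPKM in wild_young tumors, Cnn1 and Des of that list rose by 2.58 and 2.94, and the macrophage lectin Mgl2 rose by 1.95. Reg4, at 997, 1722 and 1100 FPKM against 225 to 577, was higher in every 1_hetero_ko tumor by 1.64 (SE 0.65, limma adjusted p = 0.18). Reg3g, at 64.6, 6.75 and 178 FPKM against 136 to 376, was at -2.46 (SE 1.07, limma adjusted p = 0.22). The traces of Reg3a, at most 0.0350 FPKM, were also below all wild_young tumors, at 0.0460 to 0.104 FPKM. In 8_homo_ko tumors they were too, at 0.0311 to 0.0332 FPKM. Levels this near 0 rest on few fragments, and Reg3a was not tested in these comparisons.

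In 8_homo_ko tumors Retnlg was 77.2, 35.3 and 26.4 FPKM against 2.54 to 13.3 FPKM in wild_young tumors. The ranges did not overlap, as for 21.2% of all genes, and the difference of 2.40 (SE 0.59, 95% interval 1.15 to 3.65) had a limma adjusted p of 0.11, with 0 of 6 members called and 0.457% of all genes. It passed without 8_hetero_ko tumor 1 or 2, which enter only through the shared spread (limma adjusted p = 0.019 and 0.034), and without the 2 tumors with squamous keratins, where it was 2.68 (limma adjusted p = 0.024). S100a8 was 767, 302 and 207 FPKM in these tumors and 35.7 to 209 FPKM in wild_young tumors, a difference of 1.91 (SE 0.69, limma adjusted p = 0.31). Reg4 was 600, 1095 and 1321 FPKM, above all wild_young tumors, with a difference of 1.27 (SE 0.65, limma adjusted p = 0.55). Reg3g, at 34.6, 43.5 and 51.5 FPKM, was below all wild_young tumors with a difference of -2.50 (SE 1.07, limma adjusted p = 0.43).

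In 8_hetero_ko tumors 0 of 6 members passed, where 0.00725% of all genes did. Retnlg was 5.09, 60.02 and 23.1 FPKM, with a difference of 1.36 (SE 0.59, limma adjusted p = 0.70) that passed without 8_hetero_ko tumor 1 (2.25, limma adjusted p = 0.037). Its highest value was in the tumor with squamous keratins, where S100a8 was 841 FPKM and Il6 9.75 FPKM, the highest of all libraries for both. Reg3b, at 12.8, 98.5 and 1005 FPKM, and Retnlb, at 3.56, 47.4 and 1125 FPKM, spread 78.8-fold and 316-fold within these 3 tumors, both lowest in tumor 1 and highest in tumor 3. Against 8_hetero_ko, the 8_homo_ko tumors had lower Reg3g in every library, as for 9.22% of all genes in either direction, at -2.63 (SE 1.14, limma adjusted p = 0.83), with 0 of 6 members called and 0.0507% of all genes.

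**Figure D5:**
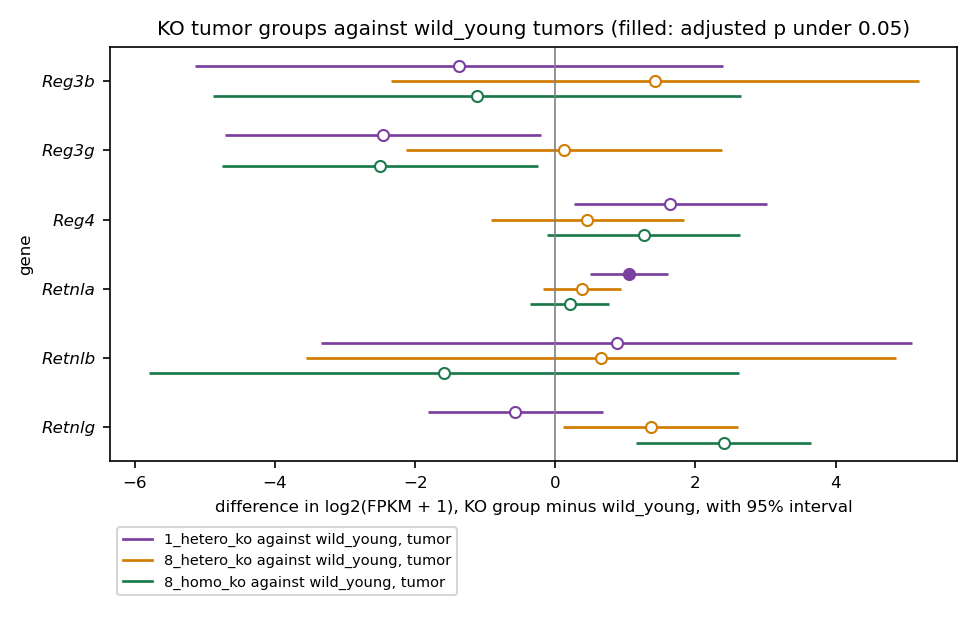
Difference of each KO-labelled tumor group from the 4 wild_young tumors in log2(FPKM + 1), with 95% intervals from limma; filled points have adjusted p under 0.05. Retnla in 1_hetero_ko at 1.05 is the only filled point. Among open points, intervals lie above 0 for Retnlg in 8_homo_ko (2.40) and 8_hetero_ko (1.36) and for Reg4 in 1_hetero_ko (1.64). They lie below 0 for Reg3g in 1_hetero_ko (-2.46) and 8_homo_ko (-2.50). Reg3b and Retnlb have intervals wider than 7 on the log2 scale.

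Across tumor groups, median Retnlg fell in the order 8_homo_ko at 35.3 FPKM, 8_hetero_ko at 23.1, wild_young at 8.12, 1_hetero_ko at 3.31 and wild_old at 0.814, and each pair of neighbours overlapped except the single wild_old tumor. Median Reg3g fell from wild_young at 267 FPKM over 8_hetero_ko at 250, 1_hetero_ko at 64.6 and 8_homo_ko at 43.5 to wild_old at 31.5; its neighbours overlapped except 8_homo_ko and wild_old. Median Reg4 fell from 1_hetero_ko at 1100 FPKM over 8_homo_ko at 1095, 8_hetero_ko at 587 and wild_young at 440 to wild_old at 232, with overlap between all neighbours.

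Genes with the most similar pattern over libraries were taken by Pearson correlation of log2(FPKM + 1), as a description without a test, since the libraries share tissue groups and depth. Over 24 libraries Retnlg was nearest to Stfa2l1, S100a9 and S100a8 (0.957, 0.956 and 0.955), and over the 14 tumors to S100a8, S100a9 and Mmp8 (0.969, 0.966 and 0.961), all genes of the neutrophil list. Reg4 was nearest to the phospholipase gene Pla2g2f (0.911), then Sval1 (0.850) and P2ry6 (0.838). Over the tumors it was nearest to Thap2, Ramp1 and Jmjd8 (0.870, 0.864 and 0.854). Reg3g was nearest to the cell cycle gene Diap3 (0.876), the interferon-induced GTPase gene Ifi47 (0.852) and the cell cycle gene Cdc20 (0.851), and within tumors to the interferon-induced genes Ido1, Iigp1 and Tgtp1 (0.893, 0.856 and 0.851). Reg3b was nearest to Ube2c, Cpne8 and Tmsb10 (0.855, 0.841 and 0.832), and within tumors to Eno1b, Tmsb10 and Ube2c (0.896, 0.895 and 0.863). Retnla was nearest to the muscle calcium store gene Casq2 (0.940), Hoxb5os (0.927) and the angiotensin receptor gene Agtr1a (0.925). In tumors its nearest were Dpp10, Lrrc3 and Sntg2 (0.959, 0.948 and 0.947), values that rest on the single wild_old tumor with high Retnla among low ones. Retnlb was nearest to Kdelr3, Pla2g4c and Fam221a (0.879, 0.861 and 0.849), and within tumors to Prss16, Tmsb10 and Hoxa11 (0.878, 0.878 and 0.872).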

How the data were processed

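RNA was extracted with the miRNeasy kit and made into libraries with a stranded TruSeq mRNA kit, per the labels' protocols. The submitters' processing notes name TopHat2 2.1.1, Bowtie2 2.2.8, SAMtools 0.1.18 and Cuffdiff 2.2.1 and the mouse build mm10; the annotation and settings are not given in the sources used here. The authors deposited 1 table of FPKM values per library, with 24346 gene symbols, none repeated, and no 2 libraries held identical values. Fragment counts are not in these FPKM tables, so no count model, counting interval or floor is given, and levels near 0 rest on few fragments.

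Libraries were grouped by their titles, and the genotype label and tissue by their characteristics. Values were taken as log2(FPKM + 1). The 13799 genes that reached 1 FPKM in 4 or more libraries were fitted over all 24 libraries in limma 3.58.1 (R 4.3.3, eBayes with trend). One model had the 4 combinations of label and tissue and another the 10 title groups. Benjamini-Hochberg adjustment ran over all tested genes, and the threshold was 0.05. Reg1 and Reg3a did not pass the filter and were compared with two-sided exact permutation tests in scipy 1.17.1. The fit was tested on simulated data. Ranges that do not overlap were read from FPKM.

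The members and the gene lists were chosen with earlier results of these data known. All 8 members are named for tumor against normal tissue, and those that passed the filter for KO against WT label. For the interaction and single KO groups the text names only some. From each list the text names counts and at most 4 members with the smallest adjusted p. These come from the WT tumor comparison or the comparison discussed. Cd163, Clec10a, Mgl2, Ccl24 and Chil3 were also named, as macrophage genes that did not pass between tumor and normal tissue. For each member that passed the filter, the text names the 3 genes with the highest Pearson correlation. The Hox and squamous keratin genes, Muc2, Ang4 and single genes such as Arg1 in KO or Il6 were added after their values were seen. Alternatives were a pseudocount of 0.1, no filter, quantile normalization, fits without the wild_old libraries, without the libraries with Xist of at least 1 FPKM and without each library in turn, and fits with a replicate block. Fits without the 2 normal libraries with exocrine pancreas transcripts and without the 2 tumors with squamous keratins were added after the data were seen. Replicate numbers recur across groups. Deviations of same-numbered tumor and normal libraries of a group had correlations of -0.159 to 0.355, over 0.1 in 1 of 8 pairs. Each group has 2 normal libraries, whose deviations from their mean are exact opposites, so the correlations of a group are not independent. The check therefore cannot decide pairing. Such libraries were not taken as pairs because the labels do not say that equal numbers mark the same animal. In 1_hetero_ko and 8_hetero_ko, moreover, these pairs set normals with Xist of at least 1 FPKM against tumors without it. Promoters come from RefSeq on GRCm38.p6 and gene bounds from GENCODE vM21, both of the same assembly as mm10; Retnlb had no promoter entry.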

Additional observations from a re-analysis of the deposited data

Results flagged for a closer look

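Among 40 combinations of gene and group with 4 to 10 libraries, 2 had a library far from the others, as chance gives in about 1 of 20. Retnla was 9.36 FPKM in the wild_old tumor, with the other 4 WT tumors at 0 to 0.161 FPKM (gap over range 0.936, critical value 0.71 for 5 libraries). The same tumor had the highest smooth muscle sum of all tumors, 2925 FPKM. Reg3a was 0.952 FPKM in 8_homo_ko normal 2, with the other 5 KO normal libraries at 0 to 0.172 FPKM (gap over range 0.763, critical value 0.625 for 6 libraries). That library is 1 of the 2 with pancreatic enzyme transcripts. The part of other tissue in these values was not tested.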

How the results depend on the processing

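The fall of Retnla in tumors kept its direction and its limma call in both labels under every alternative run except the fit on tumor and normal pairs within title groups, where the WT difference was -2.46 (limma adjusted p = 0.066). Where other values moved, the cause was not tested. Fragment counts are unknown, so depth limits mainly the genes near 0, and the 4 WT normal libraries were among the shallowest.

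Counts of genes past the limma threshold moved as follows. Between tumor and normal tissue, 4192 genes in WT became 2682 without the wild_old libraries and 2233 in the pairs, and 6520 in KO became 3670 without the libraries with Xist. Between KO and WT tumors, 1 gene became 0 with a pseudocount of 0.1, with no filter, without the wild_old libraries, the libraries with Xist, the pancreatic or the squamous libraries, and with the replicate block. The interaction went from 0 to 7 without the libraries with Xist. For 1_hetero_ko, 397 became 94 without the libraries with Xist, 230 with the block and 225 without the squamous tumors. For 8_hetero_ko, 1 became 2 with no filter, 3 without the libraries with Xist, and 0 with quantile normalization, with the block and without the pancreatic or the squamous libraries. Between 8_homo_ko and 8_hetero_ko, 7 became 19 with quantile normalization, 15 with the block, 4 without the libraries with Xist and 0 without the squamous tumors. Of the 6 members, the 1 call in WT tumors became 2 with a pseudocount of 0.1, without the wild_old libraries or without the libraries with Xist, and 0 in the pairs; the 1 call in 1_hetero_ko became 0 with no filter, quantile normalization, the block, and without the Xist, pancreatic or squamous libraries; and 0 calls in 8_homo_ko became 1 without the squamous tumors.

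Leaving out 1 library at a time gave 2983 to 5170 genes in WT and 5926 to 6852 in KO tumors against normal tissue, 0 to 2 between KO and WT tumors and 0 to 1 in the interaction. It gave 15 (without 1_hetero_ko tumor 3) to 605 (without 8_hetero_ko tumor 1) in 1_hetero_ko, 0 to 242 (without 8_hetero_ko tumor 1) in 8_hetero_ko, 18 (without 8_homo_ko tumor 2) to 78 in 8_homo_ko, and 0 (without any 8_homo_ko tumor) to 342 (without 8_hetero_ko tumor 1) between 8_homo_ko and 8_hetero_ko. Member calls ranged from 1 to 3 in WT and 2 to 3 in KO tumors and from 0 to 1 in each KO group against wild_young.

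Differences that missed the threshold changed sign as follows. Without the libraries with Xist, Reg3b between tumor and normal KO tissue was -3.02 and between KO and WT tumors -1.17; Retnlb was -0.70 between KO and WT tumors and -0.82 in 1_hetero_ko; and in 8_hetero_ko Reg3b was -0.17, Reg3g -0.24 and Retnlb -1.43. Between KO and WT tumors, Reg3b was -0.062 with a pseudocount of 0.1, -0.0088 with quantile normalization, -0.36 without the wild_old libraries and -0.20 without the squamous tumors; Retnla was 0.40 with a pseudocount of 0.1 and 0.55 without the wild_old libraries, and Retnlb was -0.022 without them. Leaving out 1 library at a time, Reg3b ranged from -0.39 to 2.23 in WT and from -0.25 to 0.99 in KO tumors against normal tissue, from -0.59 to 0.55 between KO and WT tumors, from -3.58 to 0.11 in 1_hetero_ko and from -0.17 to 2.93 in 8_hetero_ko. Reg4 ranged from -0.12 to 1.10 in WT and from -0.11 to 1.03 in KO tumors against normal tissue. Reg3g ranged from -0.24 to 0.45 in 8_hetero_ko. Retnla ranged from -0.30 to 0.55 between KO and WT tumors and from -0.038 to 0.38 in 8_homo_ko. Retnlb ranged from -2.42 to 0.07 in WT tumors against normal tissue, from -0.022 to 1.39 between KO and WT tumors, from -0.82 to 2.59 in 1_hetero_ko and from -1.43 to 2.54 in 8_hetero_ko.

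The replicate numbers were not taken to pair the samples, and the fits with a replicate block are given here only. With the replicate block Reg3g in KO tumors against normal tissue was 2.11 (limma adjusted p = 0.11) and in the pairs 2.08 (0.24), Retnla in 1_hetero_ko was 1.07 (limma adjusted p = 0.073), and Retnlb in KO passed in the pairs (-4.13, limma adjusted p = 0.041). Signs changed for Reg3b, at -0.53 (block) and -0.62 (pairs) in KO tumors against normal tissue, -0.025 in WT pairs and -0.57 between KO and WT tumors, and in 8_hetero_ko for Reg3g at -0.15 and Retnlb at -0.019.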

Other observations

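Over the 10 normal libraries alone, a set of libraries singled out after the values were seen, the genes most similar to the members were mostly others than over all libraries. Reg4 was again nearest to the phospholipase gene Pla2g2f, at a Pearson correlation of 0.983, Ippk at 0.979 and Insl5, a hormone gene of colonic enteroendocrine cells, at 0.969. Pla2g2f was 3.96 to 12.4 FPKM in the 4 normal libraries with the lowest Reg4 and 22.1 to 59.3 FPKM in the other 6. Reg3b was nearest to the bacterial sensor gene Tlr2 at 0.979, Tmem139 at 0.968 and Reg3g at 0.966, and Reg3g to Phf11b at 0.968, Reg3b at 0.966 and Myl7 at 0.964. Retnlb was nearest to the short-chain fatty acid receptor gene Ffar2 at 0.956, Alox5 at 0.943 and the antimicrobial gene Ang4 at 0.940. Retnla was nearest to the matrix genes Srpx2 at 0.934 and Bgn at 0.925 and the chemokine gene Cxcl12 at 0.916. Retnlg was nearest to Higd1c at 0.946, the mucin gene Muc6 at 0.905 and the adhesion gene Selp at 0.901, none of them on the neutrophil list, and its correlation with S100a8 was 0.789. These are descriptions over libraries that share groups and differ in Hox gene levels, with no test.

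Muc2, the main goblet cell mucin, was one of the 8.3% of genes that divided the normal libraries as Retnlb did. It was 193 to 675 FPKM in the 4 libraries with the lowest Retnlb and 1290 to 4114 FPKM in the other 6.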
